A study of Mus musculus with 18 samples.

Results

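Expression of 8 keratin and bile duct marker genes was followed in the liver transcriptome of *Rps2*-A226Y mice, namely *Krt7*, *Krt19*, *Krt8*, *Krt18*, *Epcam*, *Sox9*, *Spp1* and *Cd24a*. The genes were chosen by symbol, as keratins and markers of the bile duct epithelium, and each symbol was matched to its Ensembl identifier. All 8 were found among the 22524 genes counted and all 8 passed the filter on low counts that left 13353 genes for testing. Whole liver RNA came from females aged 15 months on the C57BL/6 strain, 10 of them A226Y and 8 wild type (WT), with 1 library each. The A226Y mice are heterozygous knock-ins carrying 1 *Rps2* allele with the A226Y ribosomal ambiguity mutation, which lowers translational accuracy, and the CMV-Cre transgene, which expresses Cre in all tissues and removes a *loxP*-flanked stop cassette from the targeted allele. The WT mice also carry CMV-Cre. Excision is incomplete, so A226Y livers are mosaics of cells that express the mutant allele and cells in which the targeted allele is silent, and the counts do not separate these cells or the alleles. No mice with a silent targeted allele alone were analysed here.

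Keratins are intermediate filament proteins that assemble as obligate pairs of an acidic type I and a basic type II chain. Hepatocytes make a single pair, K8 (*Krt8*, type II) with K18 (*Krt18*, type I), whereas the cholangiocytes that line bile ducts make this pair and add K7 (*Krt7*, type II) and K19 (*Krt19*, type I). Adult cholangiocytes also carry the adhesion molecule EpCAM (*Epcam*) and the surface glycoprotein CD24 (*Cd24a*), contain the transcription factor SOX9 (*Sox9*), and secrete osteopontin (*Spp1*), and these genes are widely read as signs of a ductular reaction or of hepatocytes that take on duct features. Several are not specific to ducts, since mesothelial cells of the liver capsule express the same simple keratins, lymphocytes express CD24, and macrophages and stellate cells can express osteopontin. In whole liver RNA, fewer cells of a type and less RNA per cell cannot be told apart.

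*Rps2* itself was read first, as a check of the genotype labels. Its level in CPM, the unit used for all levels here (counts divided by the TMM-scaled library size), lay between 46.9 and 83.0 in the A226Y mice and between 104 and 143 in the WT mice, so that the genotypes did not overlap. Total counts per mouse ranged from 23850565 to 62126131 with a median of 32018677.5, and the highest total belonged to A226Y mouse 23 (mice are numbered as in the library titles). Hepatocyte genes were abundant in every library, with 13 of them summing to between 115000 and 213000 CPM. In the comparison of A226Y with WT by edgeR's quasi-likelihood test, 1910 of the 13353 tested genes passed an adjusted p of 0.05, which is 14.3% of them (971 higher in A226Y, 7.27%, and 939 lower, 7.03%).

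None of the 8 keratin and duct marker genes passed this test, beside the 14.3% called among all tested genes. DESeq2, limma-voom and an adjusted exact permutation test called none of the 8 either. At an unadjusted p under 0.05, edgeR counted 1 of the 8 genes (*Krt19*), DESeq2 counted 1, and limma-voom and the exact permutation test counted 0; among all tested genes the share was 29.6% by edgeR and 29.5% by the permutation test. The log2 fold change, A226Y against WT, was positive for 7 of the 8 genes, with a median of 0.18 beside −0.004 over all tested genes. Among the 7, *Krt18* (0.01) and *Cd24a* (0.04) were near 0. Their sign was reversed in 9 and 5 of 31 other settings, and that of *Krt7* in 1 of 30.

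**Figure D1:**
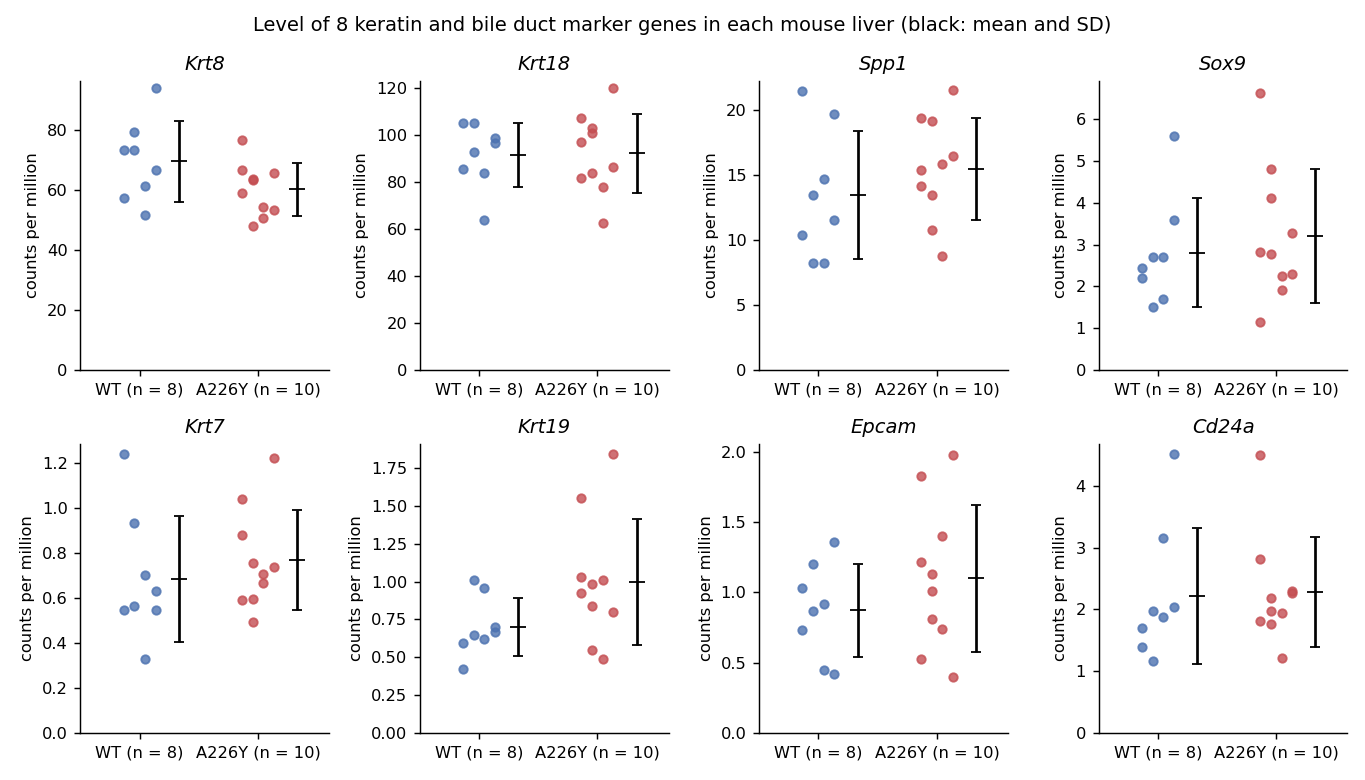
Scaled counts (CPM) of the 8 genes (vertical axes, each from 0) in every WT and A226Y liver (horizontal axes). Each point is 1 mouse and the black marks are the mean and SD. The A226Y and WT points overlap for every gene, and the levels run from about 1 CPM for *Krt7*, *Krt19* and *Epcam* to 92.1 CPM for *Krt18* in A226Y.

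Levels of different genes can be compared only per length, and were expressed as CPM per kilobase of the principal transcript. Averaged over the 18 mice, the order was *Krt18* (63.9), *Krt8* (32.9), *Spp1* (9.7), *Cd24a* (1.24), *Sox9* (0.732), *Krt19* (0.55), *Epcam* (0.491) and *Krt7* (0.179). *Krt18* exceeded *Krt8*, *Krt8* exceeded *Spp1*, *Spp1* exceeded *Cd24a* and *Epcam* exceeded *Krt7* in 18 of 18 mice. The neighbors in the middle of this order overlapped, since *Cd24a* exceeded *Sox9* in 15 mice, *Sox9* exceeded *Krt19* in 13 and *Krt19* exceeded *Epcam* in 11. The last place of *Krt7* depends on the transcript length used, 4094 bases against 2040 for *Epcam*. Before division by length *Krt7* was above *Epcam* in some mice, such as WT mouse 4 (1.24 against 0.731 CPM). Per kilobase, *Krt18* and *Krt8* thus stood well above *Krt19* and *Krt7*.

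The depth behind these genes differed accordingly. *Krt8* and *Krt18* had between 1145 and 7412 counts per mouse, for which counting error at the mean count is 2.18% and 1.81%. *Krt7*, *Krt19* and *Epcam* had between 9 and 122 counts per mouse, for which it is 17.1% for *Epcam*, 18.2% for *Krt19* and higher still for *Krt7*. The biological coefficient of variation estimated by edgeR was 16.3% for *Krt8* and 17.2% for *Krt18*, but 28.5% for *Krt7*, 31.4% for *Krt19*, 40.1% for *Epcam* and 41.5% for *Sox9*.

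*Krt8* and *Krt18* lie next to each other on chromosome 15 of GRCm38, with *Krt8* (ENSMUSG00000049382) at 101996698 to 102004482 on the minus strand and *Krt18* (ENSMUSG00000023043) at 102028180 to 102032027 on the plus strand, so that they are transcribed away from each other from GENCODE start sites 23698 bases apart. Because their levels moved together across mice, the sequence around each start is shown, from 50 bases before the RefSeq start, which differs from the GENCODE one (102004342 for *Krt8* and 102028216 for *Krt18*), to 30 bases from the start onward (GRCm38.p6, chr15:102004313-102004392 minus strand for *Krt8* and chr15:102028166-102028245 plus strand for *Krt18*). Capitals mark every match of TATAA on either strand, TTATA being the match of the opposite strand.
Krt8: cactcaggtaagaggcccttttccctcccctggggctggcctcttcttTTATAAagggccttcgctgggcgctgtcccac
Krt18: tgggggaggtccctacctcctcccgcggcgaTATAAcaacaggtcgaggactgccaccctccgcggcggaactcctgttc
In *Krt8* the matches of both strands overlap each other and the listed start, and in *Krt18* a single match lies before it. Such a match was present in 8.14% of the 32851 RefSeq promoters in the same window and in 2 of the 5 of these genes with an entry, the others with an entry being *Krt7*, *Epcam* and *Spp1*.

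*Krt8*, the type II chain of the hepatocyte pair, was between 48.0 and 76.7 CPM in A226Y livers (median 61.2), against 51.7 to 94.0 CPM in WT livers (median 70.0). The 2 ranges overlapped over most of their length, although 9 of 10 A226Y values were under the mean of the WT group. The means were 60.2 ± 8.74 CPM (SD, n = 10) and 69.6 ± 13.5 CPM (SD, n = 8), and the log2 fold change was −0.21 (standard error 0.11, 95% interval −0.43 to 0.01, adjusted p = 0.196 by edgeR). *Krt18*, its type I partner, was between 62.6 and 120.0 CPM in A226Y livers (median 91.7), against 64.0 to 105 CPM in WT livers (median 94.6). Its log2 fold change was 0.01 (standard error 0.11, 95% interval −0.22 to 0.24, adjusted p = 0.958 by edgeR). *Krt8* has a processed pseudogene, *Krt8-ps*, and an overlapping long noncoding RNA, *Gm36026*, at its start, and reads of these cannot be told apart in the counts.

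The pair moved together from mouse to mouse. After removal of the genotype means, the log2 CPM of *Krt8* and *Krt18* correlated with r = 0.77 over 18 mice (permutation p = 0.00015, adjusted p = 0.0042 over the 28 pairs of the 8 genes) and rho = 0.79 (permutation p = 0.00025, adjusted p = 0.007). Without the 2 mice farthest from the median of *Krt8* r was 0.77, and it was 0.77 within the A226Y mice and 0.81 within the WT mice. This was the only 1 of the 28 pairs to pass. The count of *Krt8* divided by that of *Krt18* in the same mouse needs no scaling between libraries, and was added after the values had been seen. It was between 0.547 and 0.811 in A226Y livers (median 0.657), against 0.672 to 0.951 in WT livers (median 0.745). In 9 of 10 A226Y mice it was under the WT mean, and in 5 of these under every WT mouse. The log2 ratio differed by −0.2 (two-sided exact permutation p = 0.0202), and by −0.24 to −0.16 when single mice were left out (exact permutation p = 0.00448 to 0.0493). Adjusted over the ratios of all 28 pairs, the p was 0.283 by the same exact permutation test, so the lower ratio did not pass. The *Krt19* count divided by that of *Krt8* was higher in A226Y, at a geometric mean of 0.0158 in A226Y and 0.0102 in WT (log2 difference 0.64, two-sided exact permutation p = 0.0112, adjusted p = 0.283 over the 28 ratios), and did not pass either. *Krt8* is the numerator of the first ratio and the denominator here, so these ratios are not independent.

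**Figure D2:**
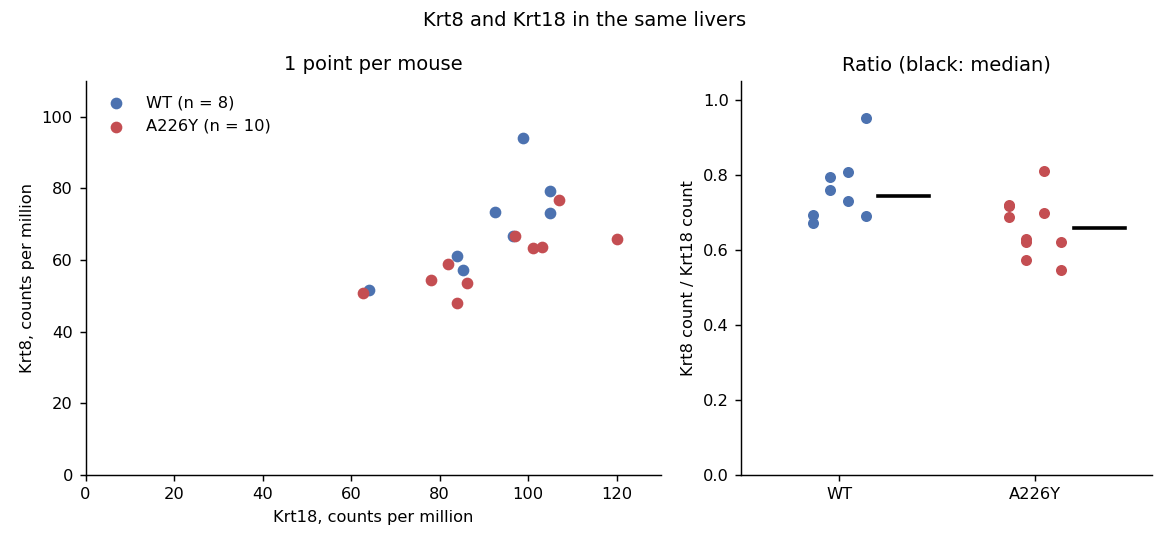
Left, *Krt8* against *Krt18* in CPM, 1 point per mouse, with WT in blue and A226Y in red. Right, the *Krt8* count divided by the *Krt18* count in each mouse with the group median as a black line. The points of both genotypes rise together on the left, and on the right the medians are 0.745 in WT and 0.657 in A226Y with overlapping points.

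*Krt19* (ENSMUSG00000020911, chromosome 11, 100140810 to 100148665, minus strand), the type I keratin that marks cholangiocytes, was between 0.486 and 1.84 CPM in A226Y livers (median 0.953), against 0.424 to 1.01 CPM in WT livers (median 0.655). 8 of the 10 A226Y mice lay above the WT mean and 4 above every WT mouse. The log2 fold change was 0.53 (standard error 0.24, 95% interval 0.03 to 1.03, adjusted p = 0.147 by edgeR), the largest of the 8 genes, and the exact permutation p was 0.0819 (two-sided, unadjusted). Between 13 and 113 counts per A226Y mouse and 14 and 32 per WT mouse stood behind it. The highest count came from A226Y mouse 23, the deepest library, and leaving out single mice gave log2 fold changes of 0.37 to 0.62.

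*Krt7* (ENSMUSG00000023039, chromosome 15, 101411043 to 101430313, plus strand), the type II keratin of duct cells, was between 0.492 and 1.22 CPM in A226Y livers (median 0.721), against 0.33 to 1.24 CPM in WT livers (median 0.598). Each group held 1 mouse near 1.2 CPM, and no A226Y mouse lay outside the WT range. Its log2 fold change was 0.17 (standard error 0.23, 95% interval −0.31 to 0.64, adjusted p = 0.666 by edgeR). An antisense gene, *Gm671*, overlaps *Krt7*, and the counts are not known to use strand. The correlation between the 2 duct keratins *Krt7* and *Krt19*, whose counts carry the larger counting error given above, was r = 0.16 over 18 mice (permutation p = 0.532, adjusted p = 0.79; rho = 0.05, permutation p = 0.857, adjusted p = 0.949), 0.25 without the 2 mice farthest from the median of *Krt7*, 0.3 within A226Y and −0.01 within WT.

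Of 50 further keratin genes in the files, 30 had no count in any mouse and 2 passed the filter. *Krt10*, a suprabasal keratin of skin, gave 2.94 ± 0.747 CPM in A226Y against 2.7 ± 0.331 CPM in WT (SD, n = 10 and n = 8), and *Krt23* gave 1.41 ± 0.689 and 1.37 ± 1.08 CPM (SD, n = 10 and n = 8). Per kilobase they stood at 1.35 and 0.891 CPM over the 18 mice, above *Krt19* and *Krt7*. Neither passed the test, with log2 fold changes of 0.13 and 0.03 (adjusted p = 0.565 and 0.97 by edgeR). Leaving out single mice gave 0.04 to 0.17 for *Krt10* and −0.15 to 0.35 for *Krt23*. With 4 surrogate variables as covariates they were 0.01 and 0.56 (adjusted p = 0.983 and 0.589 by edgeR).

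*Epcam* (ENSMUSG00000045394, chromosome 17, 87635979 to 87651129, plus strand), the adhesion molecule of duct and progenitor cells, was between 0.399 and 1.98 CPM in A226Y livers (median 1.07), against 0.42 to 1.36 CPM in WT livers (median 0.893). The lowest mice of both groups were alike, and the highest were A226Y. Its log2 fold change was 0.36 (standard error 0.29, 95% interval −0.26 to 0.97, adjusted p = 0.44 by edgeR). *Rps2* is on the same chromosome, at 24718116 to 24721929, and the targeted allele was made in 129/Sv cells before backcrossing, so linked 129/Sv sequence in A226Y mice was not tested.

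*Sox9* (ENSMUSG00000000567, chromosome 11, 112782224 to 112787760, plus strand), the transcription factor of duct cells and of the periportal hepatocytes next to them, was between 1.15 and 6.63 CPM in A226Y livers (median 2.79), against 1.51 to 5.59 CPM in WT livers (median 2.58). It had the widest spread of the 8 genes, with a 5.78-fold step from the lowest to the highest mouse, and each genotype held 1 mouse far above its median, A226Y mouse 15 and WT mouse 33. The log2 fold change was 0.2 (standard error 0.29, 95% interval −0.41 to 0.8, adjusted p = 0.693 by edgeR), and leaving out single mice gave 0.01 to 0.42.

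*Spp1* (ENSMUSG00000029304, chromosome 5, 104435118 to 104441050, plus strand), which encodes the secreted phosphoprotein osteopontin, was between 8.76 and 21.6 CPM in A226Y livers (median 15.7), against 8.25 to 21.5 CPM in WT livers (median 12.6). The ranges of the genotypes nearly coincided. The log2 fold change was 0.21 (standard error 0.19, 95% interval −0.2 to 0.61, adjusted p = 0.501 by edgeR). With 4 surrogate variables as covariates the log2 fold change was 0.89 and passed, with an adjusted p of 0.044 by edgeR, within a range of 0.044 to 0.696 over all alternatives run. A short predicted gene, *Gm42793*, overlaps *Spp1*. *Spp1* and *Epcam* varied together with r = 0.56 (permutation p = 0.0164, adjusted p = 0.23) and rho = 0.65 (permutation p = 0.00487, adjusted p = 0.0682) over 18 mice, 0.72 without the 2 mice farthest from the median of *Epcam*, 0.51 within A226Y and 0.65 within WT, and the pair did not pass the adjustment over 28 pairs.

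*Cd24a* (ENSMUSG00000047139, chromosome 10, 43578284 to 43584265, plus strand), a small glycoprotein of the cell surface, was between 1.21 and 4.5 CPM in A226Y livers (median 2.08), against 1.16 to 4.51 CPM in WT livers (median 1.93). The highest mouse of each group, A226Y mouse 29 and WT mouse 33, reached almost the same level. The log2 fold change was 0.04 (standard error 0.25, 95% interval −0.49 to 0.57, adjusted p = 0.931 by edgeR).

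**Figure D3:**
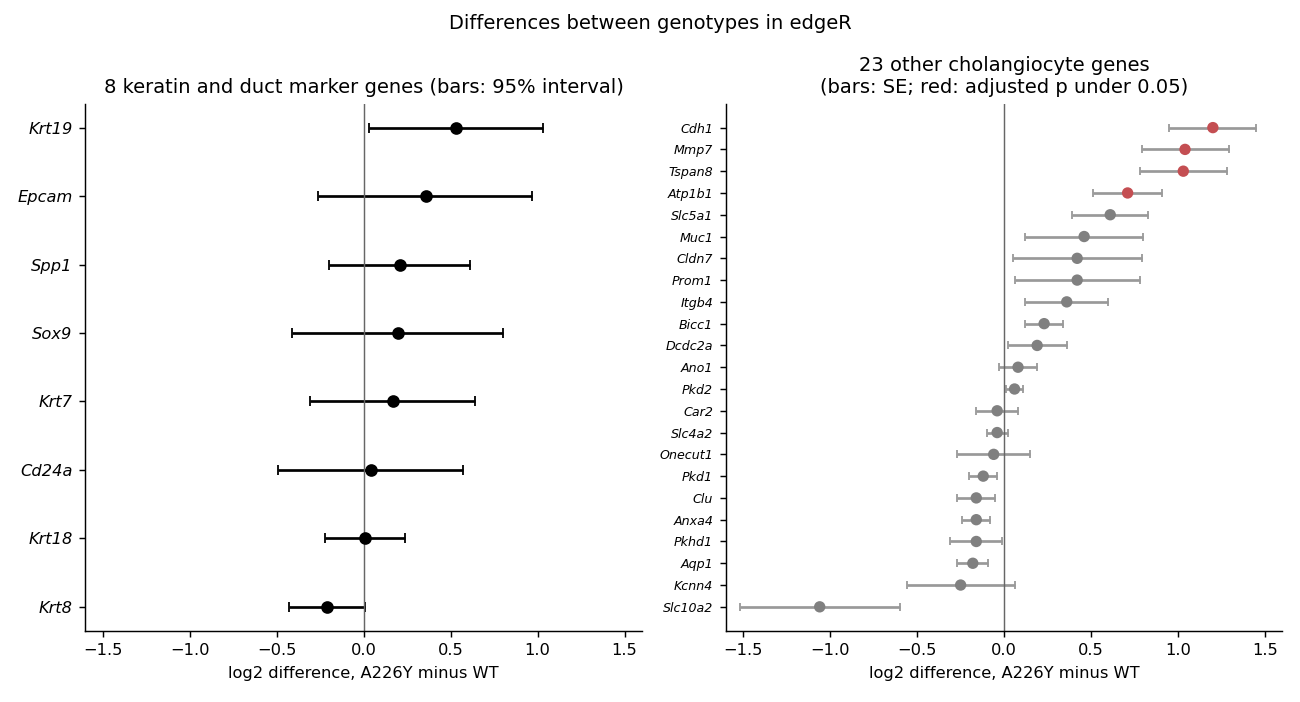
Log2 difference, A226Y minus WT (horizontal axes), from edgeR's quasi-likelihood test. Left, the 8 genes with 95% intervals. Right, 23 of the 24 other tested cholangiocyte genes with standard errors, in red where the adjusted p was under 0.05. All intervals on the left cross 0 except that of *Krt19*, which starts at 0.03, and on the right 4 genes at 0.71 or more passed.

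Apart from *Krt8* with *Krt18*, the 8 genes did not vary as a block. Of the 28 pairs, 19 had a positive r and the median r was 0.16, between −0.26 for *Epcam* with *Cd24a* and 0.77. High values were not spread evenly over mice, since A226Y mouse 23 was among the highest 3 of 18 for 5 of the 8 genes and A226Y mouse 29 for 4. These are descriptions over 18 livers that share 1 scaling per library.

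**Figure D4:**
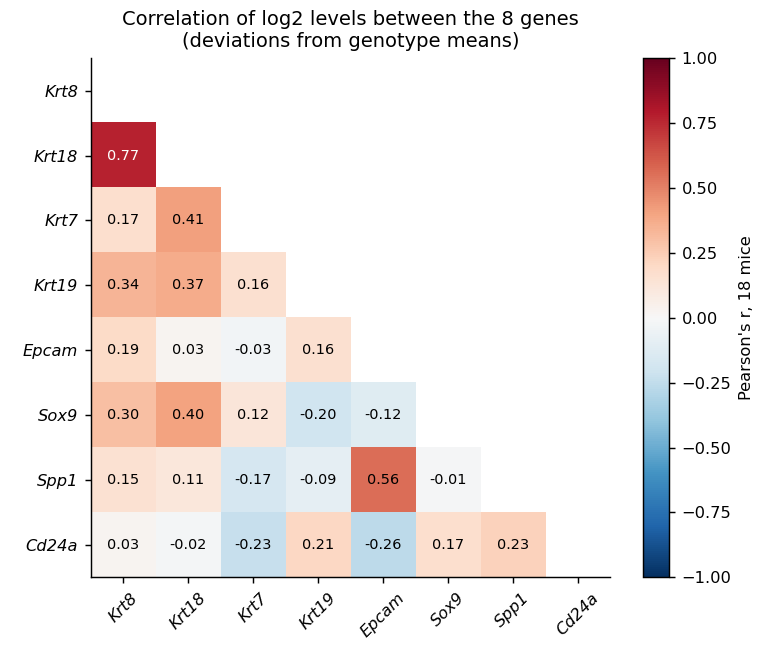
Pearson's r between the 8 genes (rows and columns) over 18 mice, from log2 CPM with the genotype means removed, on a color scale from −1 to 1. *Krt8* with *Krt18* stands out at 0.77, followed by *Epcam* with *Spp1* at 0.56, and the other pairs lie between −0.26 and 0.41.

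The tested genes whose pattern over the 18 mice was most like that of each of the 8 genes are given as a description, by Pearson's r of the same deviations. *Krt8* was most like *Tssk6* (0.79), *Sema4c* (0.77) and *Krt18* (0.77), and *Krt18* was most like *Nudt4* (0.78), *Dbndd2* (0.77) and *Krt8* (0.77). The best matches were *Cnpy4* for *Krt7* (0.79), *Pcmt1* for *Krt19* (0.78), *Surf1* for *Epcam* (0.81), *Kif4* for *Sox9* (0.89) and *Slc45a4* for *Spp1* (0.87), none of which is another of the 8 genes. For *Cd24a* they were *Ighv1-26* (0.91), an immunoglobulin heavy chain segment, *Lsp1* (0.91), a leukocyte protein of the actin cortex, and *Rhoh* (0.9), a small GTPase of blood cells.

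Because *Cd24a* is also a lymphocyte gene, the 8 genes were set beside the mean log2 level of 10 lists of other cell types and states, which was done after the values had been seen. Of these 80 relations 3 passed an adjusted p of 0.05. *Cd24a* followed 6 B cell and plasma cell genes with r = 0.78 over 18 mice (permutation p = 0.00023, adjusted p = 0.0184; rho = 0.58, permutation p = 0.0144, adjusted p = 0.192), 0.62 without WT mice 33 and 13, 0.67 within A226Y and 0.87 within WT. It followed 6 T and NK cell genes with r = 0.7 (permutation p = 0.00112, adjusted p = 0.0299; rho = 0.49, permutation p = 0.0404, adjusted p = 0.249), 0.67 without the 2 farthest mice, 0.57 within A226Y and 0.92 within WT. The rank correlations did not pass. *Cd24a* also stood at r = 0.69 with 7 cell cycle genes (permutation p = 0.00267, adjusted p = 0.0513; rho = 0.43, permutation p = 0.0786, adjusted p = 0.419), which was 0.24 without A226Y mouse 29 and WT mouse 33, 0.76 within A226Y and 0.62 within WT. With 5 erythroid genes it stood at r = 0.59 (permutation p = 0.00996, adjusted p = 0.0996; rho = 0.39, permutation p = 0.111, adjusted p = 0.493), which was 0.04 without the same 2 mice, 0.38 within A226Y and 0.74 within WT. The relation to the other cholangiocyte genes was r = 0.55 (permutation p = 0.0176, adjusted p = 0.141; rho = 0.61, permutation p = 0.00858, adjusted p = 0.137), 0.46 without the 2 farthest mice, 0.86 within A226Y and 0.23 within WT. The sum of the 6 B lineage genes ran from 11.4 to 44.3 CPM in A226Y and from 9.24 to 95.5 CPM in WT, and WT mouse 33, the highest for *Cd24a*, was also the highest for these genes and had the lowest TMM factor (0.894).

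**Figure D5:**
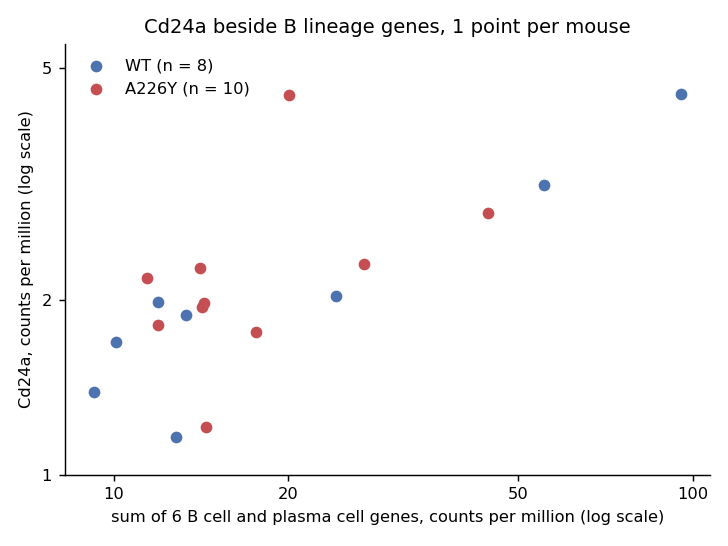
*Cd24a* (vertical axis, log scale) against the sum of 6 B cell and plasma cell genes, such as *Cd79b* and *Jchain* (horizontal axis, log scale), both in CPM, 1 point per mouse with WT in blue and A226Y in red. The WT mouse at 95.5 CPM on the horizontal axis is the highest for *Cd24a* at 4.51 CPM, and an A226Y mouse reaches 4.5 CPM at 20.1 CPM of the B lineage genes.

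The third relation was that of *Krt18* with 10 stellate cell and fibroblast genes, at r = 0.7 (permutation p = 0.00107, adjusted p = 0.0299) and rho = 0.78 (permutation p = 0.00015, adjusted p = 0.012), with 0.72 when WT mice 28 and 13 were left out, 0.71 within A226Y and 0.75 within WT. *Krt8* gave r = 0.62 with the same genes (permutation p = 0.00658, adjusted p = 0.0752; rho = 0.65, permutation p = 0.00419, adjusted p = 0.0838), 0.55 without the same 2 mice, 0.51 within A226Y and 0.69 within WT. *Spp1* stood at r = 0.65 with the other cholangiocyte genes (permutation p = 0.00357, adjusted p = 0.0513; rho = 0.67, permutation p = 0.00264, adjusted p = 0.0704), 0.63 without the 2 farthest mice, 0.5 within A226Y and 0.84 within WT. Neither this relation nor that of *Krt8* passed. *Spp1* with the hepatocyte genes gave r = −0.65 (permutation p = 0.00385, adjusted p = 0.0513; rho = −0.68, permutation p = 0.00236, adjusted p = 0.0704), −0.53 without the 2 farthest mice, −0.56 within A226Y and −0.73 within WT, and did not pass.

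Other genes used by cholangiocytes gave a mixed picture. Of 30 listed, 24 were tested, 4 rose in A226Y and none fell (16.7% called, beside 14.3% of all tested genes), with a median log2 fold change of 0.07. *Cdh1*, which encodes E-cadherin and is also made by periportal hepatocytes, rose from 5.4 ± 1.67 CPM in WT to 12.4 ± 5.63 CPM in A226Y (SD, n = 8 and n = 10; log2 fold change 1.2, adjusted p = 0.00559 by edgeR). *Mmp7*, a matrix metalloproteinase of duct epithelium that also cleaves osteopontin, and *Tspan8*, a tetraspanin, rose by 1.04 and 1.03 on the log2 scale (adjusted p = 0.0109 and 0.0107 by edgeR), from levels near 0.338 and 0.629 CPM in WT. *Atp1b1*, the beta subunit of the sodium pump and no duct-specific gene, rose by 0.71 (adjusted p = 0.0237 by edgeR). The remaining 20 tested genes did not pass, among them the polycystic disease gene *Pkhd1* (log2 fold change −0.16, adjusted p = 0.483 by edgeR). The largest difference in the other direction was that of *Slc10a2*, the apical bile acid transporter, at 2.79 ± 2.26 CPM in A226Y against 5.86 ± 6.37 CPM in WT (SD, n = 10 and n = 8; log2 fold change −1.06, adjusted p = 0.125 by edgeR). Its values ran from 1.36 to 8.96 CPM in A226Y and from 1.67 to 21.1 CPM in WT (two-sided exact permutation p = 0.0824, unadjusted). The water channel *Aqp1* and the anion exchanger *Slc4a2* were well detected, at 140.0 and 35.1 CPM in A226Y and 159 and 36.0 CPM in WT. Per kilobase they stood at 56.5 and 8.49 CPM over the 18 mice, above *Krt19* at 0.55. Which cells carried these transcripts was not tested. At the edge of detection were the chloride channel *Cftr*, the secretin receptor *Sctr* and the bile acid receptor *Gpbar1*, with at most 7, 4 and 1 counts in any mouse, so that no change in these 3 was detectable at this depth. *Cdh1*, *Mmp7* and *Tspan8* had adjusted p-values of at most 0.0257 when any 1 mouse was left out, and *Atp1b1* reached 0.052 without WT mouse 14. With 4 surrogate variables none of the 4 passed (adjusted p = 0.241 for *Cdh1*, 0.264 for *Mmp7*, 0.115 for *Tspan8* and 0.48 for *Atp1b1*).

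Partners of keratin filaments were examined as a group of desmosomal proteins, cytolinkers and chaperones, of which 12 were tested. *Hspb1*, a small heat shock protein that binds keratins, rose from 4.77 ± 2.3 CPM in WT to 9.13 ± 3.49 CPM in A226Y (SD, n = 8 and n = 10; log2 fold change 0.93, adjusted p = 0.0316 by edgeR). The call of *Hspb1* was lost without any of A226Y mice 7 and 32 and WT mice 13, 14 and 24 (adjusted p up to 0.0616 by edgeR). *Evpl*, the cytolinker envoplakin, rose by 0.83 (adjusted p = 0.0121 by edgeR). The other 10, which include *Dsp*, *Jup*, *Plec* and *Sqstm1*, did not pass, the called share was 16.7%, near the 14.3% of all tested genes, and the median log2 fold change was 0.06.

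Notch and Hippo signaling act upstream of *Sox9*, *Spp1* and duct fate in liver. Of 27 tested genes of both pathways, 4 rose and none fell (14.8% called, near the 14.3% of all tested genes, with a median log2 fold change of 0.02). They were the YAP target *Ccn2* (log2 fold change 0.94, adjusted p = 0.0307 by edgeR), the DNA-binding partner *Tead1* (0.4, adjusted p = 0.0269 by edgeR), the inhibitory kinase *Lats1* (0.2, adjusted p = 0.00671 by edgeR) and the coactivator *Yap1* (0.14, adjusted p = 0.0335 by edgeR). The YAP targets *Ccn1* and *Amotl2* did not pass, with log2 fold changes of −0.47 and −0.21 (adjusted p = 0.111 and 0.199 by edgeR), *Ankrd1*, a further one, was too low to be tested (mean 0.224 CPM in A226Y and 0.0971 CPM in WT), and 2 genes of the list were lower at an unadjusted p under 0.05. Of the 4 called genes only *Lats1* was called in all 18 fits that left out 1 mouse. That of *Ccn2* was lost without WT mouse 4, 14, 21, 24 or 28 or A226Y mouse 15, that of *Tead1* without WT mouse 13, 14 or 24, and that of *Yap1* without WT mouse 13, 14, 24 or 28 or A226Y mouse 7 or 15 (adjusted p up to 0.0636, 0.0618 and 0.0628 by edgeR). Of the osteopontin receptors and the proteases that cleave osteopontin, 5 of 12 passed, a share of 41.7% beside 14.3% of all tested genes, with a median log2 fold change of −0.07. *Mmp7* and the integrin subunits *Itgb3* (0.76, adjusted p = 0.0152 by edgeR) and *Itgav* (0.2, adjusted p = 0.029 by edgeR) rose, and *Itgb5* (−0.36, adjusted p = 0.00291 by edgeR) and *F2*, which encodes prothrombin (−0.34, adjusted p = 0.00476 by edgeR), fell. The call of *Itgav* was lost without WT mouse 13, 14 or 24 (adjusted p up to 0.0628 by edgeR).

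Markers of the other cells that could carry these transcripts are set beside the 14.3% called among all tested genes. Of 13 tested hepatocyte genes 3 rose (23.1%; *Tat*, *Cps1* and *Apob*, log2 fold changes 0.85, 0.55 and 0.29) and none fell. The call of *Tat* was lost without WT mouse 14, 21, 24 or 33 or A226Y mouse 7 or 32, and that of *Apob* without WT mouse 13, 14, 21 or 24 or A226Y mouse 3, 7, 11 or 22 (adjusted p up to 0.0693 and 0.0737 by edgeR). None of 7 mesothelial genes passed, their median log2 fold change was −0.21, and they summed to between 2.39 and 12.5 CPM in A226Y and 6.03 and 13.5 CPM in WT. The mesothelial genes *Msln* and *Gpm6a* stood at 0.718 and 0.569 CPM per kilobase, above the 0.179 of *Krt7*. Of 10 stellate cell and fibroblast genes the collagens *Col1a1*, *Col3a1* and *Col1a2* fell (log2 fold changes −0.77, −0.6 and −0.33; adjusted p = 0.0162, 0.00516 and 0.0397 by edgeR) and none rose, with a list median of −0.03. The call of *Col1a2* was lost without WT mouse 6, 14, 21, 24 or 33 or A226Y mouse 3, 5, 7, 11, 22, 23 or 32 (adjusted p up to 0.0818 by edgeR). Of 11 Kupffer cell and macrophage genes *Clec4f* fell (−0.65, adjusted p = 0.0261 by edgeR, and 0.0577 without WT mouse 14), a called share of 9.09%. Their median log2 fold change was −0.4, and 2 of the 11 were positive, with sums of 287 to 1110 CPM in A226Y and 427 to 859 CPM in WT. None of 6 endothelial, 6 B cell and plasma cell, 6 T and NK cell, 5 erythroid, 2 exocrine pancreas and 7 cell cycle genes passed, and among these edgeR counted 2 at an unadjusted p under 0.05. The median log2 fold change was −0.31 for the B cell and plasma cell genes, −0.42 for the T and NK cell genes and −0.45 for the erythroid genes. When single mice were left out *Cd79b* ran from −0.35 to 0.21, whereas *Jchain* (−1.06 to −0.1), *Cd3e* (−0.56 to −0.26) and *Nkg7* (−0.82 to −0.38) stayed negative. With surrogate variables *Cd79b*, *Jchain* and *Cd3e* turned positive at 0.35, 0.3 and 0.23, and *Nkg7* was at −0.06. The median sum of the B lineage genes was 14.3 CPM in A226Y and 13.1 CPM in WT, and that of the T and NK cell genes 3.19 and 3.94 CPM. The part of these cells in the levels of the 8 genes was not tested.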

How the data were processed

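Liver RNA of 18 mice was analysed, 10 A226Y and 8 WT as grouped by the genotype label, 1 library per mouse. The values deposited by the authors are raw counts, whole numbers of reads for each Ensembl gene. The methods name RSEM and an Ensembl annotation for these counts, whereas the submitters' processing notes name bcl2fastq, MultiQC, fastp, STAR, featureCounts and GRCm38, and whether counting used strand is not given in the sources used here. Symbols and positions came from GENCODE M21 on GRCm38, which held 22214 of the identifiers, and promoter sequences were taken from RefSeq (GRCm38.p6), which held 5 of the 8 genes. *Krt19*, *Sox9* and *Cd24a* had no entry.

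A gene was tested where 50% or more of the mice of either genotype had 10 counts or more. Genotypes were compared by the quasi-likelihood test of edgeR 4.0.16 (R 4.3.3) after TMM scaling, without covariates, and p-values were adjusted by the Benjamini-Hochberg method over 13353 genes, with a threshold of 0.05. Single genes were tested by exact permutation, two-sided, on the size of the difference in log2 CPM (prior count 2) over all divisions of the mice into 10 and 8. Count ratios were tested in the same way on the log2 ratio of the raw counts, with a small constant added to each count. Correlations of deviations from the genotype means were tested with 100000 permutations. No 2 mice of a genotype agreed within sampling noise (chi-square per degree of freedom at least 19.71). The labels number mice separately, and the p-values for genotype set the difference against the spread between these mice. Total counts of 23850565 to 62126131 leave little counting error except in the genes with the lowest counts, and the counting errors given cover counting only.

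Alternatives were RLE, upper quartile and library size scaling, 3 other filters, DESeq2 1.42.0, limma-voom 3.58.1, robust dispersions, 4 surrogate variables (sva 3.50.0), length and GC offsets (13300 genes), and leaving out each mouse in turn. Procedures were tested on simulated data. Genes are named by this rule: all 8 genes, from each other list the called genes up to 5 by size of change or else the 2 highest per kilobase, and for each of the 8 genes the most alike genes by r. *Pkhd1*, *Ccn1*, *Amotl2*, *Ankrd1*, *Slc10a2*, *Aqp1*, *Slc4a2*, *Cftr*, *Sctr*, *Gpbar1* and the 4 filament partners named as not passing were named outside it, after their values were seen. The 8 genes and the lists were chosen with earlier results of these data known. Protein measurements and mice carrying the unexcised allele alone were not analysed here, and a few listed genes are counted in their lists without being reported singly.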

Additional observations from a re-analysis of the deposited data

Results flagged for a closer look

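*Krt18* in the WT mice was flagged because its lowest value stood apart from the rest. WT mouse 13 had 64.0 CPM and the next lowest WT mouse 83.8 CPM, a gap that was 0.54 of the range of the group on the log2 scale. *Krt8* was also lowest in this mouse among the WT mice, at 51.7 CPM, and the mouse was among the lowest 3 of 18 for 3 of the 8 genes. Without it the log2 fold change of *Krt18* was −0.05 in place of 0.01, and neither passed the test. This was the only 1 flagged of 16 groups examined (8 genes in 2 genotypes), and chance flags about 1 group in 20.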

How the results depend on the processing

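No paired analysis was possible because the numbers in the labels do not repeat between the genotypes. The count of the 8 genes that passed was 0 under the other scalings, filters, offsets, DESeq2, limma-voom and robust dispersions, and without any single mouse. *Krt7* could not be tested with a filter of 10 counts in every mouse. The 4 surrogate variables changed most: 50 genes passed in place of 1910 (40 of them shared, 58.0% higher), none of the 21 called genes of the other lists passed (0), and 1 of the 8 genes passed, *Spp1* at 0.89. The cause was not tested. *Krt7* turned to −0.2 and *Krt18* to −0.09 in that fit, *Epcam* went from 0.36 to 0.82 and *Cd24a* from 0.04 to 0.41 without passing (adjusted p = 0.259 and 0.375 by edgeR), *Krt18* was −0.002 with limma-voom, and *Cd24a* was −0.004 with the GC offset. Library size scaling alone called 2059 genes, 67.9% of them higher in A226Y beside 50.8% with TMM, and moved the median log2 fold change of all genes from −0.004 to 0.039; DESeq2 called 2418. Without single mice the calls ran from 1255 (without WT mouse 14) to 2560 (without A226Y mouse 29), the called genes of the lists from 11 to 33 (without the same 2 mice), the genes of the 8 with an unadjusted exact permutation p under 0.05 from 0 to 1, and the correlated pairs from 1 to 2 (2 without A226Y mouse 11). The log2 fold changes without single mice ran from 0.06 to 0.34 for *Krt7*, −0.05 to 0.06 for *Krt18* (negative without WT mice 4 (−0.004), 13 (−0.05) and 28 (−0.01) and A226Y mice 18 (−0.01), 23 (−0.04), 29 (−0.01) and 32 (−0.004)), and −0.12 to 0.27 for *Cd24a* (negative without WT mice 4 (−0.01), 6 (−0.05) and 21 (−0.03) and A226Y mouse 29 (−0.12)). Those of *Krt19* (0.37 to 0.62), *Krt8* (−0.26 to −0.14), *Epcam* (0.21 to 0.47), *Sox9* (0.01 to 0.42) and *Spp1* (0.13 to 0.34) kept their sign. Counts of at most 122 in any mouse limit *Krt7*, *Krt19* and *Epcam*.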
